A study of Rattus norvegicus with 8 samples.

Results

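*Dbh*, *Slc6a2*, *Phox2a* and *Pnmt*, 4 genes of noradrenergic neurons, were followed across arrays of the rat *substantia nigra* (SN). They were found by taking every probe whose RefSeq accession maps to one of these symbols, without regard to its values. Each gene had 1 probe, printed as 1 spot on each array, so that the set held 4 of the 45598 probes on the array and 4 of the 16678 genes that could be named. Of the 33853 probes that were tested, 3 belonged to the set, since the probe for *Phox2a* was above background on no array.

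Noradrenergic neurons make noradrenaline from dopamine with dopamine β-hydroxylase, the product of *Dbh*, which sits in the synaptic vesicle and separates these cells from dopaminergic neurons. The noradrenaline transporter, *Slc6a2*, takes the transmitter back up, the homeodomain factor *Phox2a* specifies the cells during development and helps to keep *Dbh* active, and phenylethanolamine N-methyltransferase, *Pnmt*, turns noradrenaline into adrenaline in the few neurons and adrenal cells that use it. The cell bodies lie in the locus coeruleus and other groups of the pons and medulla, whereas the SN receives only their axons.

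The rats were female Sprague–Dawley, 3 months old at surgery, and were killed 20 weeks later. Both groups received 1 unilateral injection of an AAV6 vector into the SN, which carried wild-type human α-synuclein (AAV-αSyn) or was the control vector (AAV-Null). The AAV-αSyn vector was given at 5.2e10 and the AAV-Null vector at 5.3e9 vector genomes per µL, so the transgene and the dose of virus cannot be told apart. The promoter that drives the transgene is not given in the sources used here, and 10 rats were injected per group, of which those with an array are not identified here. RNA from the microdissected SN of the injected side was labelled with Cy3 and hybridised to 4 arrays per group, all on 1 slide.

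The median processed intensity lay between 261 and 338 on the 8 arrays, the correlation between any pair of arrays over all probes was between 0.983 and 0.993, and no pair held identical values. Of the 8 dopaminergic genes tested, 8 were above background on all 8 arrays. AAV-αSyn replicate 1 stood apart from the other AAV-αSyn arrays at *Dbh*, and the results for *Dbh* are also given without it. As background, 5 of the 33853 probes tested (0.0148%) passed an adjusted p of 0.05. At an unadjusted p under 0.05, the AAV-αSyn group was higher at 3.31% of the probes and lower at 2.32%. The AAV-αSyn arrays lay above all AAV-Null arrays for 2.57% of the probes and below them for 1.26%. The median log2 fold change of all probes was 0.0083. Of the 3 members tested, 0 passed the adjustment with limma, 1 was higher at an unadjusted p under 0.05, and 0 had groups that did not overlap. *Dbh* passed the filter on dim probes only through the AAV-αSyn group, *Slc6a2* through both groups.

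*Dbh* was at background on every AAV-Null array and on 1 of the AAV-αSyn arrays, and well above background on the other AAV-αSyn arrays. Its processed intensity, in arbitrary units after the scanner software had subtracted the background, was 4.31, 2.59, 2.84 and 4.14 on AAV-Null replicates 1 to 4. On AAV-αSyn replicates 1 to 4 it was 2.56, 67.1, 159 and 192. The local background around the spot was alike, with medians of 30 to 33 (AAV-Null) and 31 to 36 (AAV-αSyn). No array marked the spot as an outlier.

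**Figure D1:**
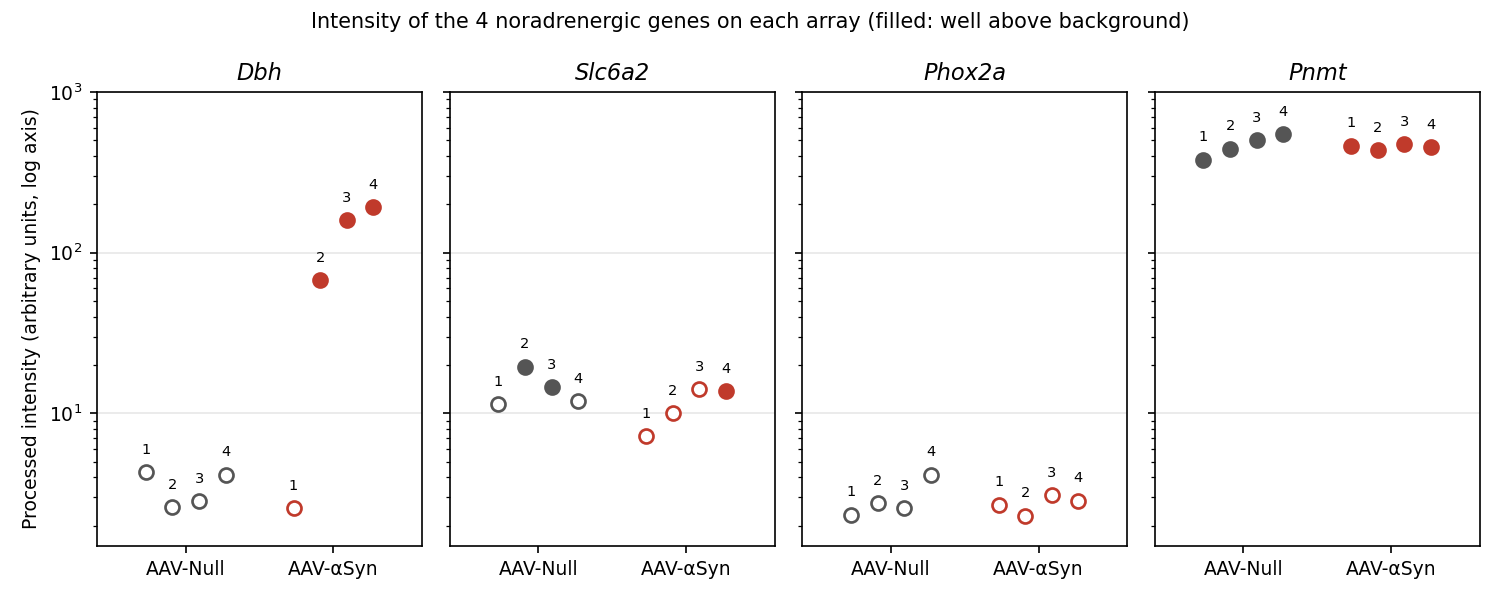
Processed intensity (arbitrary units, log axis) of the probe for each gene on each array, with the replicate number above the point, AAV-Null in grey and AAV-αSyn in red. Filled points are well above background. *Dbh* was between 67.1 and 192 on AAV-αSyn replicates 2, 3 and 4 and between 2.56 and 4.31 elsewhere. Heights of different genes come from different probes and are not to be compared.

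After quantile normalisation, the log2 intensity of *Dbh* was 1.99, 1.34, 1.72 and 2.26 across AAV-Null replicates 1 to 4, against 1.31, 6.27, 7.30 and 7.38 across AAV-αSyn replicates 1 to 4. The groups overlapped, because AAV-αSyn replicate 1 was the lowest of all 8 arrays while the other AAV-αSyn arrays were the highest. The AAV-Null mean was 1.83 ± 0.39 and the AAV-αSyn mean 5.57 ± 2.88 (SD, n = 4 each). Since the gene was below background on all AAV-Null arrays, the fitted fold change is no measure of size, and the AAV-αSyn mean was at least 5.42-fold higher, taking for each AAV-Null array the lowest signal among its probes that were well above background. That floor is a convention and not a strict ceiling, since *Slc6a2* was called below background at 3.55 and 3.63 on AAV-Null replicates 1 and 4, where the floors were 2.56 and 3.48 on the log2 scale. AAV-αSyn replicate 1 entered the mean at its measured value, itself below background, so the fold over all arrays is not a strict bound. The fitted log2 fold change was 3.74 ± 1.25 (SE; 95% interval 0.86 to 6.62), with an unadjusted limma p of 0.0172 and an adjusted p of 0.762. The exact permutation test, two-sided over the 70 splits of the arrays, gave p = 0.143, where the smallest it can give is 0.0286. In bulk tissue, a change in the number of cells that make an mRNA and a change in its amount per cell cannot be told apart.

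AAV-αSyn replicate 1 decided the outcome of the test for *Dbh*. When each array was left out in turn, the log2 fold change without it was 5.17 ± 0.32 (SE) with an adjusted p of 0.0076 by limma, and without any other single array it was between 3.14 and 3.87 with an adjusted p of at least 0.583. The array left out is the one whose value went against the difference, and the AAV-Null arrays were below background, so the value without it is neither an independent test nor a measure of size. Without it, the AAV-αSyn mean was at least 14.5-fold higher by the same floor. Within the first and the second side of the slide, each with 2 arrays per group, the AAV-αSyn mean was at least 1.90-fold and 15.5-fold higher by the same floor, the first with AAV-αSyn replicate 1 at its measured value and so not a strict bound. Without AAV-αSyn replicate 1 the first side, then with 1 array against 2, gave at least 15.1-fold. The side of the slide without this array was added after the data had been seen. With a normexp background correction, which adds an offset to every spot and so draws dim spots together, the log2 fold change was 1.14.

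**Figure D2:**
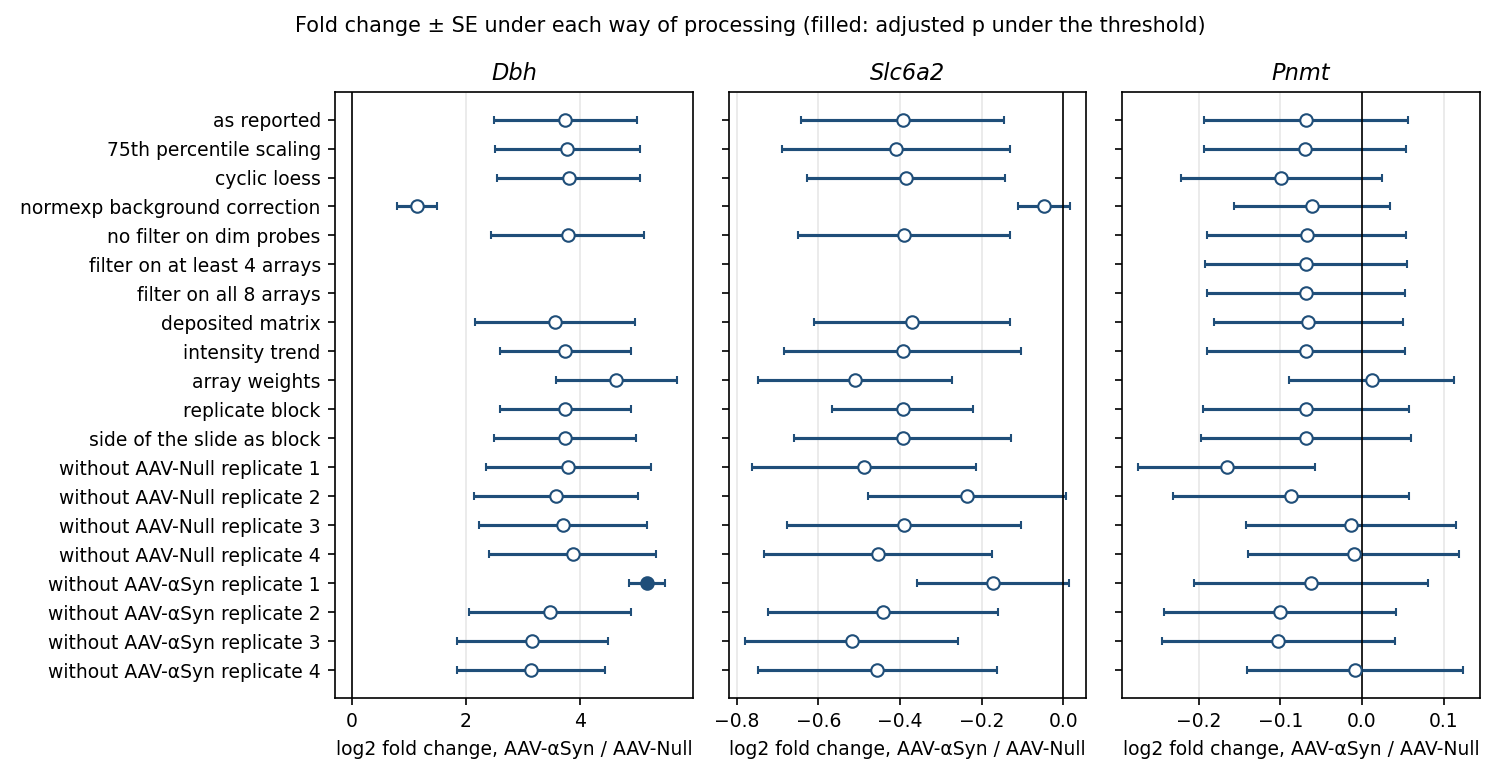
Log2 fold change (AAV-αSyn over AAV-Null, horizontal axis, bars ± SE) of *Dbh*, *Slc6a2* and *Pnmt* under each way of processing the arrays, each panel with its own scale. A filled point has an adjusted p under 0.05, which holds only for *Dbh* without AAV-αSyn replicate 1 (5.17). *Dbh* and *Slc6a2* have no value where probes had to be above background on at least 4 or on all 8 arrays.

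Of the probes tested, 7 (0.0207%) were well above background on AAV-αSyn replicates 2, 3 and 4 and on no other array. These probes were chosen by the pattern of *Dbh* itself, so their number is a description. Those with a name were *Dbh*, *Tescl*, *Has2*, a hyaluronan synthase, and *Niban1*. For *Dbh* the lowest of these replicates lay 4.02 above the highest other array on the log2 scale. The same gap was 0.27 for *Tescl* and 0.12 for *Has2*, and for *Niban1* the arrays overlapped (−0.16). The other named genes thus lay near the limit of detection and did not share the wide gap of *Dbh*.

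The promoter of *Dbh* is shown because *Phox2a*, whose product binds homeodomain sites there, was measured on the same arrays. The sequence is the RefSeq sequence of GRCr8 upstream of the annotated start of the gene, chr3:30886078-30886312 on the plus strand, 235 bases from 5′ to 3′. Capitals mark ATTA, the core of homeodomain sites, and CGTCA, one arm of a cAMP response element, each searched on both strands (as TAAT and TGACG on the other).

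*Dbh*: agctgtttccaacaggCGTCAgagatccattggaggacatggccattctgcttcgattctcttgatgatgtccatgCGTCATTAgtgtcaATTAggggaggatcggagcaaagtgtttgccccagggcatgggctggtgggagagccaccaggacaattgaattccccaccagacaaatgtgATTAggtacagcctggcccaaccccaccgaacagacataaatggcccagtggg

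ATTA occurred 3 times, beginning 155, 145 and 53 bases before the start, and CGTCA 2 times, beginning 219 and 159 bases before it. The run CGTCATTA holds one of each, overlapping by 1 base. Among 33469 rat promoter windows of the same length, 55.7% held the homeodomain core and 17.7% held it at least 3 times, while 17% held the cAMP arm and 3.52% held it at least 2 times. The matching window of *Phox2a* held neither. These are matches of letters and do not show that a factor was bound. Promoters of *Slc6a2* and *Pnmt* were not used here.

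*Phox2a* was at background throughout. Its processed intensity was 2.34, 2.76, 2.57 and 4.15 on the AAV-Null arrays and 2.69, 2.30, 3.10 and 2.86 on the AAV-αSyn arrays, in the order of the replicates. On the 3 arrays where *Dbh* was well above background, *Phox2a* thus gave no signal above that of the AAV-Null arrays. Without the filter on dim probes, its log2 fold change was −0.15 ± 0.17 (SE) with an adjusted p of 0.956 by limma, which compares values below background and is no measure of size. In the annotation *Phox2a* overlaps *Inppl1*, and the other members of the set overlap no gene. Of the genes that set a noradrenergic neuron apart from a dopaminergic one and were measured here (*Dbh*, *Slc6a2* and *Phox2a*), only *Dbh* was far above background, on 3 AAV-αSyn arrays, so the name of the set stands for the genes and not for cells shown to be in the samples.

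*Slc6a2*, the noradrenaline transporter, was close to background in both groups. Its log2 intensity was 3.55, 4.29, 3.82 and 3.63 across AAV-Null replicates 1 to 4, against 2.76, 3.58, 3.80 and 3.57 across AAV-αSyn replicates 1 to 4. It was above background on AAV-Null replicates 2 and 3 and on AAV-αSyn replicate 4. The groups overlapped, with AAV-αSyn replicate 1 the lowest array and AAV-Null replicate 2 the highest. The log2 fold change was −0.39 ± 0.25 (SE; 95% interval −0.97 to 0.18), with an adjusted p of 0.961 by limma and an exact permutation p of 0.257. As it was above background on 2 AAV-Null arrays and 1 AAV-αSyn array, this difference, its interval and the differences by side or without single arrays are no measures of size. On the 3 arrays with a *Dbh* signal it lay between 3.57 and 3.80, within the range of the AAV-Null arrays and above AAV-αSyn replicate 1 (2.76). The AAV-αSyn mean was lower by 0.68 within the first side of the slide and by 0.11 within the second. Leaving out single arrays gave between −0.52 and −0.17, and the normexp correction gave −0.05.

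*Pnmt*, the enzyme that makes adrenaline, was above background on all 8 arrays and differed least of the 3 members tested. Its log2 intensity was 8.59, 8.83, 9.05 and 9.06 across AAV-Null replicates 1 to 4, against 8.80, 8.91, 8.91 and 8.63 across AAV-αSyn replicates 1 to 4. All AAV-αSyn arrays lay within the range of the AAV-Null arrays, and AAV-Null replicates 3 and 4 lay above every AAV-αSyn array. The log2 fold change was −0.07 ± 0.13 (SE; 95% interval −0.36 to 0.22), with an adjusted p of 0.985 and an exact permutation p of 0.6. An interval of this width leaves out a change of more than 0.36 on the log2 scale in either direction at the confidence level stated. AAV-αSyn replicate 1, the AAV-αSyn array without a *Dbh* signal, was within the range of the AAV-Null arrays at *Pnmt*. As *Pnmt* was above background also on every array where *Dbh* was at background, its single probe is not read here as a mark of adrenergic cells.

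Whether arrays high in one of these genes were high in another was tested only for *Slc6a2* and *Pnmt*, since the arrays fell into separate clusters at *Dbh*. *Slc6a2* was above background only on AAV-Null replicates 2 and 3 and AAV-αSyn replicate 4. The values below thus rest mostly on signals below background and cannot decide the question. Over the 8 arrays Pearson's r and Spearman's rho differed in size and neither passed the exact test (Pearson r = 0.21, exact permutation p = 0.644; Spearman rho = 0.62, exact permutation p = 0.115; 1 pair of genes examined, so the adjusted values are the same). When the arrays farthest from the median of *Slc6a2* were left out (AAV-Null replicate 2 and AAV-αSyn replicate 1), r was 0.64. Within the AAV-Null group r was 0.09, and within the AAV-αSyn group 0.20. With arrays scaled by their 75th percentile, r was 0.33 (exact permutation p = 0.429) and rho 0.24 (exact permutation p = 0.582), and r was 0.24 within the AAV-Null group and 0.37 within the AAV-αSyn group.

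The wider noradrenergic pathway was described with 5 lists of 39 genes in all, members not included, of which 35 were tested. With limma 0 passed the adjustment, 3 were higher and 3 were lower at an unadjusted p under 0.05, and 22 had a positive log2 fold change. Of all probes tested, 3.31% were higher and 2.32% lower at that threshold. The median was 0.06, beside 0.0186 for the brightest probe of each of the 13648 named genes tested and 0.0083 for all probes. The count at an unadjusted p depended on single arrays: it fell from 6 to 1 without AAV-αSyn replicate 2, to 2 without AAV-Null replicate 2, and to 3 without AAV-Null replicate 1 or AAV-αSyn replicate 4. Without AAV-αSyn replicate 1 it was 4. The shares of all probes at this threshold without single arrays are not given here, so these falls are not set against the rest of the array.

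**Figure D3:**
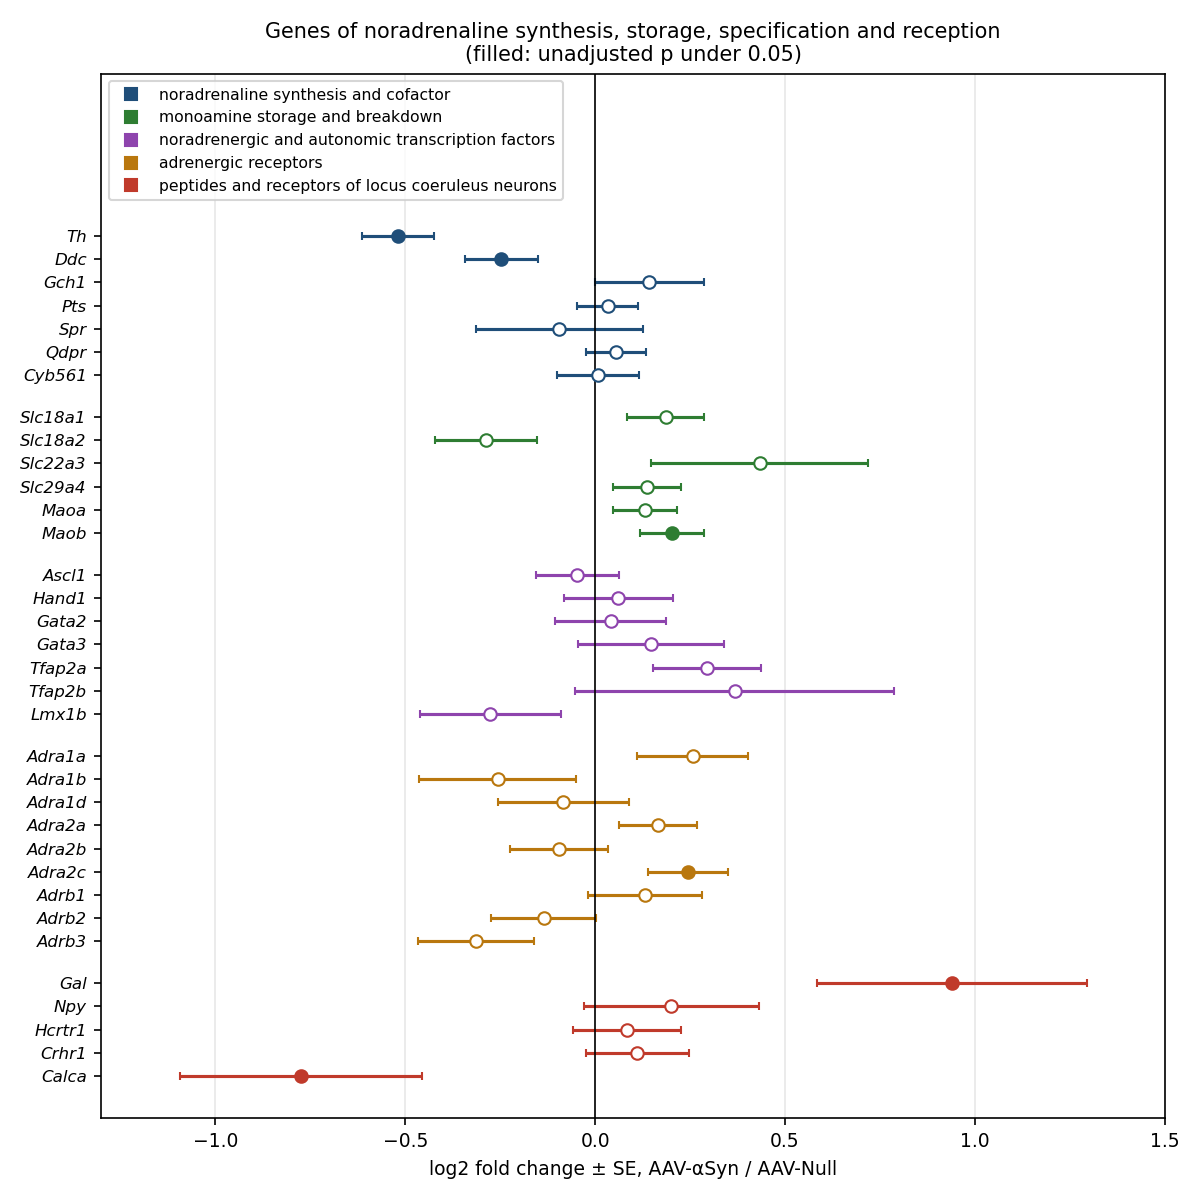
Log2 fold change (AAV-αSyn over AAV-Null, bars ± SE) of 34 of the 35 genes of the 5 lists that were tested, coloured by list, with filled points at an unadjusted p under 0.05. *Gal* (0.94) and *Calca* (−0.77) lie farthest from 0, and the genes that accept noradrenaline or specify its neurons lie between −0.31 and 0.37.

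Among 7 genes of synthesis and its cofactor, 2 were lower at an unadjusted p under 0.05 and 5 were not, with a median of 0.0077. *Th*, tyrosine hydroxylase, which opens the pathway in dopaminergic and noradrenergic cells alike, measured 16.70, 16.51, 16.30 and 16.43 across the AAV-Null arrays, in the order of the replicates and on the log2 scale, against 15.99, 15.99, 16.01 and 15.88 across the AAV-αSyn arrays. All AAV-αSyn arrays, replicate 1 included, were below all AAV-Null arrays. The log2 fold change was −0.52 ± 0.096 (SE), with an unadjusted p of 6.0e-04 and an adjusted p of 0.484 by limma. *Ddc*, the decarboxylase that follows it, gave −0.25 ± 0.096 (adjusted p = 0.835) with its brightest probe, also without overlap of the groups. Its dimmer probes gave −0.23 ± 0.14 and −0.30 ± 0.16, with groups that overlapped (unadjusted p = 0.145 and 0.0891). *Th*, *Ddc* and *Slc18a2* belong to both a noradrenergic and the dopaminergic list. *Gata2*, *Gata3* and *Lmx1b* belong to both a noradrenergic and the serotonergic list, so these lists are not independent. The enzymes *Gch1*, *Pts*, *Spr* and *Qdpr*, which make or recycle the tetrahydrobiopterin cofactor, and *Cyb561*, which passes electrons to the vesicle, lay between −0.09 and 0.14.

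Of 7 genes of storage and breakdown, 1 was higher at an unadjusted p under 0.05 and the median was 0.14. *Maob*, a monoamine oxidase found mainly in glia and serotonergic neurons, measured 10.55, 10.30, 10.61 and 10.49 across the AAV-Null arrays, in the order of the replicates and on the log2 scale, against 10.71, 10.73, 10.61 and 10.71 across the AAV-αSyn arrays. The groups did not overlap, but the closest arrays were 10.607 and 10.613. Its log2 fold change was 0.20 ± 0.085 (adjusted p = 0.868). *Maoa*, the oxidase of noradrenergic neurons, gave 0.13 ± 0.084 (adjusted p = 0.961). *Slc18a2*, the vesicular transporter that loads noradrenaline, gave −0.29 ± 0.13 (adjusted p = 0.910). Both had groups that overlapped.

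Of 11 transcription factors of noradrenergic and autonomic neurons, 8 had a named probe and 7 were tested, and 0 had an unadjusted p under 0.05 (limma; median 0.06, from −0.28 to 0.37). *Hand2* was above background on no array. *Tfap2b*, which the sympathetic and locus coeruleus lineages use, had a log2 fold change of 0.37 ± 0.42 (SE), and *Gata3* one of 0.15 ± 0.19. *Insm1* and *Tlx3* were among those without a named probe.

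All 9 adrenergic receptors, which respond to noradrenaline on the receiving cell, were above background on all 8 arrays. Of these, 1 was higher at an unadjusted p under 0.05, and the median was −0.08. That was *Adra2c*, with 0.24 ± 0.11 and an unadjusted p of 0.0499. *Adra2a*, the autoreceptor of noradrenergic neurons, gave 0.17 ± 0.10 (adjusted p = 0.961), and 0.26 with array weights. *Adra2b* was read differently by its probes: the brighter gave −0.10 ± 0.13 and a dimmer one −2.53 ± 0.94 (unadjusted p = 0.0270, adjusted p = 0.83). The dimmer probe was below background on 2 AAV-αSyn arrays, where it read 2.10 and 1.92, so its difference is no measure of size.

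The list of peptides and receptors of locus coeruleus neurons held 5 genes, of which 1 was higher and 1 was lower at an unadjusted p under 0.05. *Gal*, galanin, a peptide of most locus coeruleus neurons and also of serotonergic and other neurons, measured 10.36, 10.12, 11.25 and 10.70 across the AAV-Null arrays, in the order of the replicates and on the log2 scale, against 11.60, 11.76, 10.64 and 12.19 across the AAV-αSyn arrays. The groups overlapped, since AAV-αSyn replicate 3 lay below AAV-Null replicates 3 and 4. The log2 fold change was 0.94 ± 0.36 (SE; adjusted p = 0.835). *Gal* did not follow *Dbh* from array to array: it was 11.60 on AAV-αSyn replicate 1, where *Dbh* was at background, and 10.64 on AAV-αSyn replicate 3, where *Dbh* was 7.30. *Calca*, which encodes calcitonin gene-related peptide, had no overlap of its groups, with 11.07 to 11.54 (AAV-Null arrays) and 9.47 to 11.06 (AAV-αSyn arrays). Its log2 fold change was −0.77 ± 0.32 (adjusted p = 0.862), and −0.43 without AAV-αSyn replicate 4. A dimmer probe of *Calca* gave −0.87 ± 0.35 (adjusted p = 0.851) with groups that overlapped, at 8.44 to 9.16 (AAV-Null arrays) and 6.86 to 8.60 (AAV-αSyn arrays). *Npy*, *Hcrtr1* and *Crhr1* lay between 0.08 and 0.20.

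Lists of other neurons that lie near or caudal to the SN were described in the same way. Of the 7 serotonergic genes, 0 passed the adjustment with limma and 2 were higher at an unadjusted p under 0.05, with a median of 0.15. The mean log2 intensity over the list was 6.19 to 7.89 (AAV-Null arrays) and 7.28 to 8.01 (AAV-αSyn arrays). *Tph2*, tryptophan hydroxylase of the raphe, was 8.32, 8.12, 10.61 and 8.99 across AAV-Null replicates 1 to 4, against 11.16, 11.51, 10.59 and 12.20 across AAV-αSyn replicates 1 to 4 (log2 fold change 2.35 ± 0.57, adjusted p = 0.600). *Slc6a4*, the serotonin transporter, gave 2.30 ± 0.76 (adjusted p = 0.760), and *Fev*, the serotonergic factor, passed the background on 3 AAV-αSyn arrays and 1 AAV-Null array. *Htr1a* (0.12), *Gata2* (0.04), *Gata3* (0.15) and *Lmx1b* (−0.28) had unadjusted p-values between 0.176 and 0.787. *Tph2* differed from *Dbh* on AAV-αSyn replicate 1, where it was within the range of the other AAV-αSyn arrays, and on AAV-Null replicate 3, where it reached 10.61 and *Dbh* was at background.

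Of 9 hindbrain Hox genes, 6 had a named probe, 5 were tested and 0 were above background on all 8 arrays. Their mean log2 intensity was 2.77 to 2.99 (AAV-Null arrays) and 3.06 to 4.50 (AAV-αSyn arrays). Their median log2 fold change was 0.86, which is the value of *Hoxa2* itself. These means are in large part of probes below background: *Hoxa4*, *Hoxb3* and *Hoxb5* were above it on 0 AAV-Null arrays and passed the filter only through the AAV-αSyn group. *Hoxd3*, above background on 3 arrays of each group, had a log2 fold change of −0.06. The fitted values were −0.06 for *Hoxb5* and 1.21 for *Hoxb3*. A rise shared by the whole list was thus not shown. *Hoxa4* was 2.59, 4.23, 5.50 and 1.63 on AAV-αSyn replicates 1 to 4, with 2 of these above background. Its groups did not overlap, but the lowest AAV-αSyn arrays were below background as well, and the normexp correction brought its fitted difference from 2.27 to 0.41. AAV-αSyn replicate 4, the highest for *Dbh*, was the lowest of its group for *Hoxa4*. *Hoxa2* was 3.90 to 5.07 (AAV-Null arrays) and 5.16 to 5.76 (AAV-αSyn arrays). The difference was 0.86 ± 0.26 on the log2 scale (adjusted p = 0.712), and 0.29 with the normexp correction. A dimmer probe of *Hoxa2*, above background on 0 AAV-Null arrays and 3 AAV-αSyn arrays, gave 1.88 ± 0.48 (adjusted p = 0.606). The fitted differences of *Hoxa4*, *Hoxb3*, *Hoxb5* and of this probe are no measures of size.

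Of 5 genes of cholinergic and cranial motor neurons, 1 was higher at an unadjusted p under 0.05, with list means of 7.33 to 9.04 (AAV-Null arrays) and 8.45 to 9.65 (AAV-αSyn arrays). *Slc5a7*, the choline transporter, did not overlap between groups (log2 fold change 1.43 ± 0.42, adjusted p = 0.701). *Chat*, choline acetyltransferase, gave 1.22 ± 0.57 (adjusted p = 0.902) with its brighter probe and 0.02 ± 0.14 with a dimmer one. The brighter gave 0.66 without AAV-Null replicate 2 and 2.03 with array weights. *Isl1*, a motor neuron factor, gave −1.25 ± 0.82, which is no measure of size, since it was above background on 3 AAV-Null arrays and 1 AAV-αSyn array. The part of serotonergic, cholinergic and hindbrain tissue in the *Dbh* signal was not tested.

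**Figure D4:**
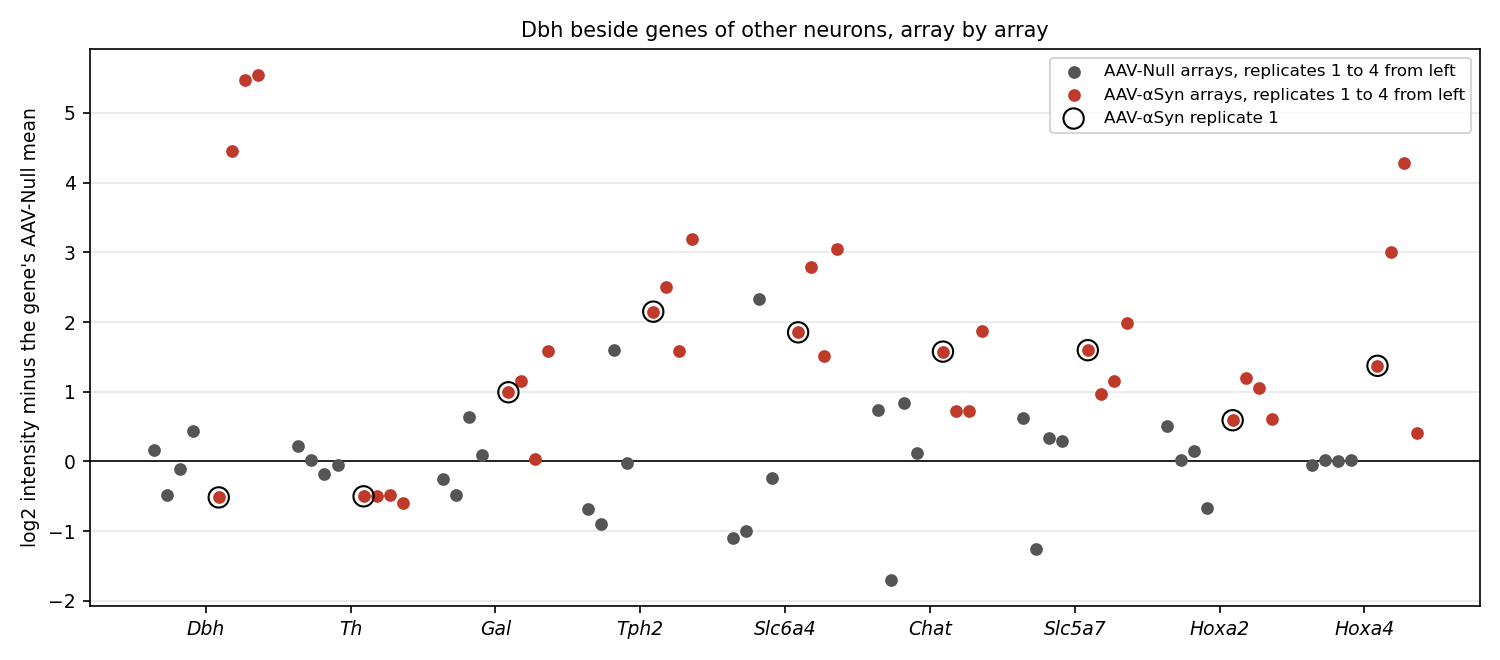
Log2 intensity on each array minus the mean of the AAV-Null arrays for the same gene (vertical axis), AAV-Null in grey and AAV-αSyn in red, for *Dbh* and 8 genes of the pathway and of other neurons. AAV-αSyn replicate 1, ringed, is with the AAV-Null arrays at *Dbh* (1.31 on the log2 scale) and above their mean at every other gene shown except *Th*.

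Of the 8 dopaminergic genes tested, 4 were lower at an unadjusted p under 0.05 and 8 had a negative log2 fold change, with a median of −0.36 and list means of 12.10 to 12.55 (AAV-Null arrays) and 11.70 to 12.01 (AAV-αSyn arrays). Of the 4 genes tested on the cerebellar list, 1 was lower at an unadjusted p under 0.05, which was *Zic1* (−1.47 ± 0.46). *Gabra6* and *Cbln3* of the same list were above background on no array, so *Zic1* is not read here as a mark of cerebellar tissue. Of the genes of astrocytes, oligodendrocytes and microglia, 5 of each were tested and 0 had an unadjusted p under 0.05 with limma, with medians of 0.08, 0.05 and 0.07. Of 5 endothelial genes 1 was higher, *Kdr* (0.27 ± 0.090), and of 5 genes on the choroid plexus list 1 was lower, *Otx2* (−0.49 ± 0.10), which dopaminergic neurons of the midbrain also express. *Ttr*, transthyretin, the main product of the choroid plexus, gave 1.28 (unadjusted p = 0.279, adjusted p = 0.972). *Kdr* and *Otx2* did not overlap between groups and did not pass the adjustment (adjusted p = 0.771 and 0.555).

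The genes whose pattern over the 8 arrays was most like that of *Dbh* were sought among 13101 named genes above background on at least 4 arrays. The 10 with the highest Pearson r were *Sorl1* (0.94), a neuronal sorting receptor, *Tcp11* (0.94), *Jmjd6* (0.94), *Pcmt1* (0.93), which repairs damaged aspartyl residues, *Klk1c10* (0.93), a kallikrein, *Tspan3* (0.92), a tetraspanin, *Herc2* (0.92), a ubiquitin ligase, *Phf12* (0.92), *Eid3* (0.91) and *Synb* (0.90). These genes covered between 0.17 and 1.09 on the log2 scale, where *Dbh* covered 6.06. None of the 10 was a gene of the noradrenergic, serotonergic or hindbrain lists. After each group's mean had been subtracted, 0 of the 10 were still among the 10 most alike, and 2 were when arrays were scaled by their 75th percentile. Over the 7 arrays without AAV-αSyn replicate 1, added after the data had been seen, 0 were. Such a likeness rests on 3 high and 5 low arrays of 1 slide and is given as a description.

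Of the 79 listed genes that could be compared in this way by their brightest probe, 15 (19.0%) had an r over 0.5 with *Dbh* and 7 (8.86%) had an r under −0.5, beside 11.1% and 6.44% of all genes compared. The highest were those of the receptors *Adra2c* (0.83), *Crhr1* (0.82) and *Adra2a* (0.78). *Tph2* reached 0.64, *Gal* 0.47 and *Chat* 0.41, and *Th* had −0.69. *Pnmt*, a member and not a listed gene, had −0.15. As *Dbh* was well above background only on AAV-αSyn arrays, these values of r in part repeat the difference between the groups. The lists were also chosen with earlier results of these data known. The shares of listed genes are thus a description and cannot decide whether a noradrenergic pattern was present.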

How the data were processed

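Total RNA from the SN was labelled and hybridised to 1-colour Agilent arrays, 4 per group. The methods speak of 3 biological replicates per group, whereas 4 arrays per group carry group labels. Per the file headers, the authors' scanner files hold each spot's processed intensity, background-subtracted and not normalised between arrays, and the deposited matrix holds log2 values after quantile normalisation. The submitters' processing notes give Feature Extraction 11.5.1.1 and the file headers 12.0.3.2. Control and outlier spots were left out, probes well above background (at least 0.5 of their spots) on at least 1 array were kept, and log2 processed intensities were quantile normalised and averaged per probe. Groups were compared with limma 3.58.1 in R 4.3.3 (lmFit and eBayes, two-sided, Benjamini–Hochberg over all probes, threshold 0.05), and the procedure was tested on simulated data. The number of arrays limits the precision. The methods call the samples biological replicates and the labels do not name the rats, so p-values measure the spread between these samples. Symbols came from a RefSeq table of GRCr8, which names 21229 of the 45598 probes. Where probes of 1 gene differ in brightness, the brightest stands for it, except that the search for genes like *Dbh* took the probe with the highest r. The files' gene positions are of another build and are not given.

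The genes named are the 4 members, fixed pathway genes, listed genes whose groups did not overlap at an unadjusted p under 0.05, and the 10 most like *Dbh*; *Adra2b*, *Adra2c*, *Crhr1*, *Zic1* and other single list genes were named after their values were seen. Some genes that the rule selects are not reported here. The members and the 15 lists were chosen with earlier results of these data known. Alternatives were 75th percentile or cyclic loess scaling, normexp with an offset of 50 on the median signal and background, other filters (none, at least 4 arrays, all 8 arrays), the deposited matrix, an intensity trend, array weights, blocks for the replicate number or side of the slide, and leaving out each array.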

Additional observations from a re-analysis of the deposited data

Results flagged for a closer look

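For the members and the named genes, the 4 arrays of a group were searched for one set apart from the others, by Dixon's ratio of its gap to the spread of the group. Of 58 groups examined, 1 exceeded the 95% critical value, which chance passes in about 1 of 20 groups that were not chosen for their pattern. That rate does not hold for the 20 groups of the 10 genes named for their likeness to *Dbh*, since replicate 1 was the AAV-αSyn array farthest from the others for 10 of the 10, as the choice built in. Of the 38 groups of the other genes, 0 exceeded the value. The group that did was *Jmjd6* in the AAV-αSyn group, with 8.99 on replicate 1 and between 9.19 and 9.23 on the others on the log2 scale. *Jmjd6* is one of the 10, so this is a description. *Dbh* itself had a ratio of 0.818 in the AAV-αSyn group, just under the critical value.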

How the results depend on the processing

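The direction of *Dbh* and *Slc6a2* was kept under every alternative that gave a value. *Dbh* lay between 1.14 (normexp) and 4.63 (array weights) and between 3.14 and 5.17 without single arrays. *Slc6a2* was between −0.52 and −0.17 and *Pnmt* between −0.17 and −0.0080 without single arrays, and array weights turned *Pnmt* to 0.012. Neither *Dbh* nor *Slc6a2* could be fitted where probes had to be above background on at least 4 or all 8 arrays. The 5 probes past the adjustment became 10 with array weights, 3 with the side of the slide as block, and 3 to 5 without single arrays, of which AAV-Null replicates 1, 2, 3 and 4 each gave 3. The 6 pathway genes at an unadjusted p under 0.05 became 10 with array weights and 1 to 6 without single arrays. Samples with the same replicate number lie in the same row of the slide, so a replicate block is also a row block, and the labels give them no other link. Their deviations correlated by 0.14, 0.27, 0.041 and −0.0022, and 2 of the 4 numbers correlated best with themselves. With a replicate block, 0 probes passed the adjustment, and *Dbh* stayed at 3.74 with an adjusted p of 0.700. Of the 10 genes most like *Dbh*, 2 were kept with 75th percentile scaling and 0 with group means subtracted or, added after the data had been seen, without AAV-αSyn replicate 1. The cause of these changes was not tested. A single spot per array carries each member, and signals near background limit *Dbh*, *Slc6a2* and *Phox2a*.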
